A study of Homo sapiens with 36 samples.

Results

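The genes described here make 10 small, folded RNAs that RNA polymerase III transcribes: RN7SK (7SK RNA), RN7SL1 and RN7SL2 (7SL RNA), RPPH1 (the RNA of RNase P), RMRP (the RNA of RNase MRP), BCYRN1 (BC200 RNA), VTRNA1-1, VTRNA1-2 and VTRNA1-3 (vault RNAs) and RNY1 (a Y RNA). They were chosen by name, with earlier results of these data known. All 10 were present among the 59607 features of the total RNA tables and the 60095 features of the polyA tables. HCT116, a human colon carcinoma line, was used throughout. All cells expressed TIR1, a plant F-box protein that sends proteins carrying an auxin-inducible degron (AID) to the proteasome when auxin is present. The control cells carried TIR1 alone, and the DIS3-AID cells were a CRISPR-edited clone in which DIS3, the exonuclease subunit of the RNA exosome, carried the degron. Both lines were left without auxin or given 500 uM auxin for 1 h. Ribo-depleted total RNA of the cytoplasm, ribo-depleted total RNA of the chromatin fraction and polyA-enriched RNA of the cytoplasm were sequenced from each of the 4 groups, with 3 libraries a group and 36 in all. The study design describes the cytoplasm triplicates as technical, so p-values measure the spread between libraries and not between separate cultures. The DIS3-AID line is a single clone, so differences between the lines cannot be told apart from differences between clones.

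RNA polymerase III makes short RNAs that end in a run of U and mostly work inside a protein complex. 7SK holds the elongation kinase P-TEFb in an inactive complex, 7SL is the scaffold of the signal recognition particle that brings ribosomes to the endoplasmic reticulum, RNase P trims the 5′ end of pre-tRNA and RNase MRP cuts pre-ribosomal RNA. Vault RNAs sit in the vault particle, Y RNAs bind the Ro60 protein, and BC200 is a primate RNA derived from an Alu element that represses translation. The nuclear exosome, of which DIS3 is a catalytic subunit, degrades RNA from the 3′ end and is known to remove surplus and misprocessed transcripts of RNA polymerase III.

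The 3 vault RNA genes lie in 1 cluster on the plus strand of chromosome 5: VTRNA1-1 at chr5:140711275-140711373, VTRNA1-2 at chr5:140718925-140719013 and VTRNA1-3 at chr5:140726158-140726246. Their sequences are shown, 5′ to 3′ as DNA letters from the GENCODE 29 transcripts on hg38, because only 1 of the 3 had enough counts to test. Capitals mark the bases outside any stretch of 15 bases shared with another of the 3. VTRNA1-3 was 87.8% identical to VTRNA1-2 and 83.0% identical to VTRNA1-1, and 17 of its 89 bases lay outside the shared stretches, in the middle and at the 3′ end.
VTRNA1-1: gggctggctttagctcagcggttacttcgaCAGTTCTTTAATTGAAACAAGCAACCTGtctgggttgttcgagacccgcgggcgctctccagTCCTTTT
VTRNA1-2: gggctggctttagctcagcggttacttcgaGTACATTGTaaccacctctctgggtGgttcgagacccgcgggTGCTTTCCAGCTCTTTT
VTRNA1-3: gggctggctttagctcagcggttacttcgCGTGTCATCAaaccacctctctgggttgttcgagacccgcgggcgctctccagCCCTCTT

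RN7SL1 lies at chr14:49586580-49586878 on the plus strand and RN7SL2 at chr14:49862550-49862849 on the minus strand, and the 2 genes are near-identical copies. RN7SL3, another 7SL gene that is not among the members, is 97.7% identical to RN7SL1 and 96.0% to RN7SL2. Of the windows of 50 bases in each gene, 84.4% for RN7SL1 and 86.5% for RN7SL2 occurred in a transcript of another locus, as did 77.1% for RN7SK and 25.0% for RNY1. How reads that fit several places were counted is not given in the sources used here, so the values of these 4 genes are uncertain. RPPH1, RMRP, BCYRN1 and the 3 vault RNAs had no such window.

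The remaining genes lie at chr6:52995621-52995948 on the plus strand (RN7SK), chr14:20343075-20343407 on the minus strand (RPPH1), chr9:35657754-35658017 on the minus strand (RMRP) and chr7:148987136-148987248 on the minus strand (RNY1). In 5 of the 10 a second annotated feature on the same strand held nearly the same counts. RF00100 at RN7SK and AL139099.4 at RN7SL1 had identical counts in 12 of 12 libraries of each data set, and the largest difference was 3 counts for AL355075.4 at RPPH1, 3 counts for a second RMRP entry and 74 counts for AL627171.2 at RN7SL2. The values below are those of the named gene. BCYRN1 (ENSG00000236824.2, an scRNA gene of 200 bases) lies at chr2:47335315-47335514 on the plus strand, in an intron of AC106869.1, a long non-coding RNA gene on the opposite strand that spans chr2:47192405-47345074. RN7SL1 lies in an intron of RPS29, again on the opposite strand.

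The depth of a library was 59.5 to 122.6 M counts for cytoplasm total RNA, 50.3 to 139 M for chromatin and 25.9 to 33.1 M for polyA RNA. Levels are given as CPM, the count of a gene relative to the total of its library after TMM scaling (trimmed mean of M-values, a scaling factor between libraries). Of 10 colon epithelial markers (8 of them in the polyA tables), 7 reached 1 CPM in every library of all 3 sets. Of 7 fibroblast markers 1 did so in each set, and of 7 blood markers (4 of them in the polyA tables) 0 did. A list of markers of the chromatin fraction held 6 genes, such as MALAT1. In each fraction 1 of them was under 1 CPM in every library. Their summed level was 4930 to 6750 CPM on chromatin and 971 to 1240 in the cytoplasm. The sum over 6 cytoplasmic RNAs was 822 to 1290 on chromatin and 16600 to 24900 in the cytoplasm. DIS3 RNA without auxin was lower in the DIS3-AID line than in the control line in all 3 sets. In the cytoplasm the log2 difference was -0.85 (SE 0.05, edgeR adjusted p = 2.38e-09). Auxin acts on the DIS3 protein, which these libraries do not measure.

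The members differed in level by several orders of magnitude. Genes are compared with each other only per kilobase of gene length. The vault RNAs and RNY1 are 89 to 113 bases long, and the other members 200 to 333. How well such short RNAs enter these libraries was not tested, so their order need not be that in the cells. In untreated control cytoplasm RN7SK was highest at 49341 ± 1824 CPM per kilobase (SD, n = 3). RN7SL1 followed at 33517 ± 1179, RPPH1 at 25872 ± 1400 and RN7SL2 at 24838 ± 478, and RPPH1 and RN7SL2 did not differ beyond their spread. RMRP was at 3598 ± 158 (SD, n = 3), RNY1 at 159.7 ± 39.4, VTRNA1-3 at 24.1 ± 3.94 and BCYRN1 at 10.6 ± 1.08 CPM per kilobase. VTRNA1-1 at 0.507 ± 0.178 and VTRNA1-2 at 0.449 ± 0.195 were lowest and did not differ beyond their spread. On chromatin the order was another: RMRP led at 2099.6 ± 356.1, ahead of RN7SK at 758.8 ± 71.5, RN7SL1 at 268.5 ± 43.7, RN7SL2 at 162 ± 23.9 and RPPH1 at 39.4 ± 3.41. BCYRN1 at 6.89 ± 1.16 and VTRNA1-3 at 5.36 ± 0.528 CPM per kilobase did not differ beyond their spread there, and RNY1 was at 0.807 ± 0.333. Together the 10 genes took a median of 4.16% of all counts in the cytoplasm, 0.094% on chromatin and 0.00774% in the polyA set. The totals include the overlapping features named above.

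**Figure D1:**
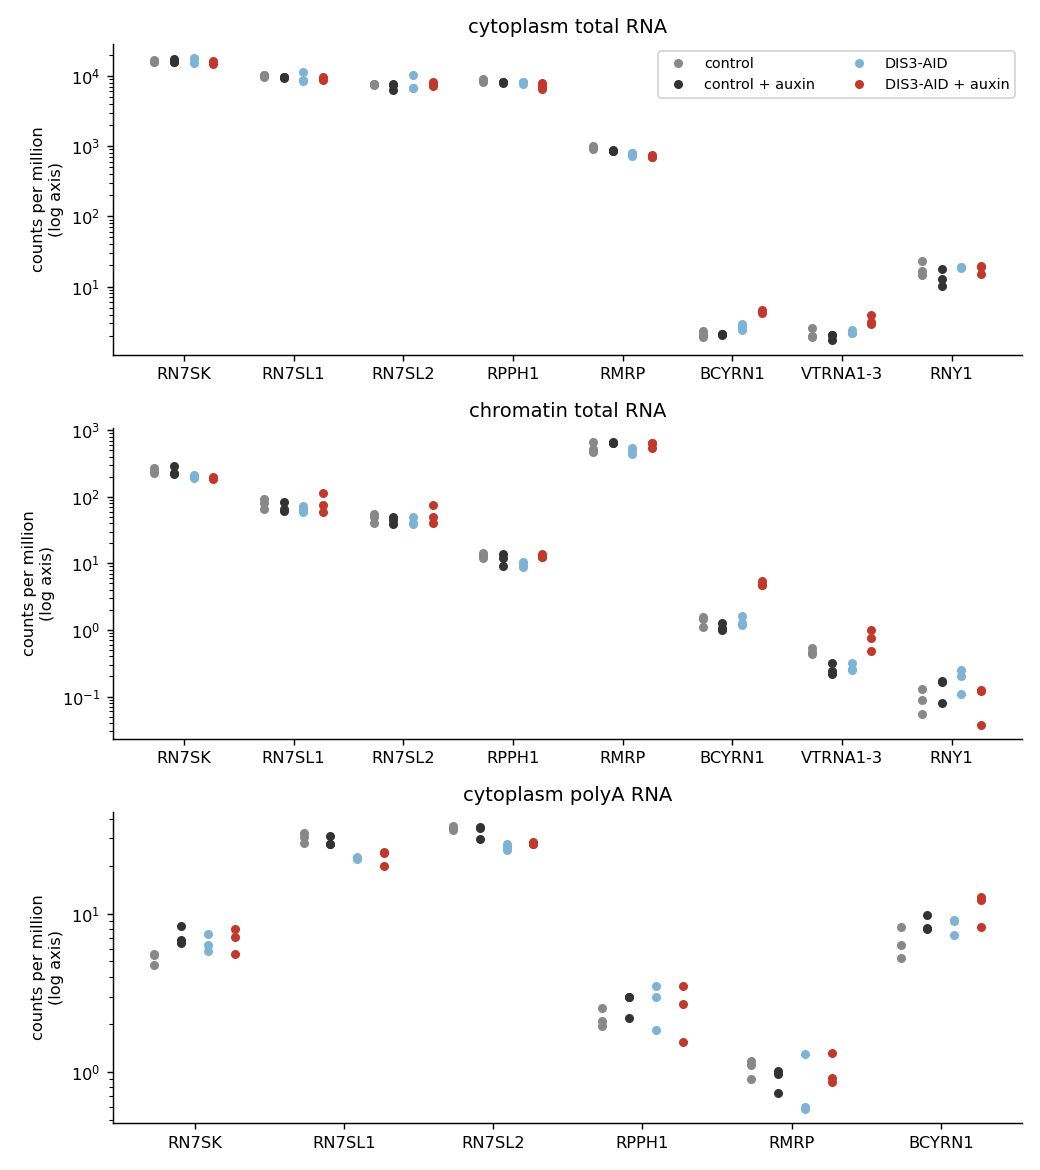
Level of the members in CPM (log axis) in each library, with total RNA of the cytoplasm above, total RNA of chromatin in the middle and polyA RNA below. Each point is 1 library and colours are the 4 groups. Members with fewer than 10 counts in most libraries of a set are left out of its panel, and in the cytoplasm BCYRN1 and VTRNA1-3 sit highest in auxin-treated DIS3-AID cells, at 4.19 to 4.58 and 2.94 to 3.89.

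VTRNA1-1 and VTRNA1-2 were too low to test in any set. VTRNA1-1 had 2 to 11 counts a library in the cytoplasm, 0 to 4 on chromatin and 0 to 1 in the polyA set, where 10 of 12 libraries had no count. In the cytoplasm its auxin-treated DIS3-AID libraries had 11, 10 and 6 counts, against 3, 2 and 7 in untreated DIS3-AID cells, so the groups overlapped. VTRNA1-2 had 1 to 7, 0 to 4 and 0 to 3 counts a library in the same order. A count of 0 allows up to 3 counts, or 0.0216 to 0.0597 CPM on chromatin and 0.0907 to 0.116 in the polyA set, for counting error only. RNY1 was too low to test in the polyA set, at 2 to 6 counts a library. That left 8 members tested in each total RNA set and 7 in the polyA set. On chromatin RNY1 had 2 to 15 counts a library and only its untreated DIS3-AID libraries all reached 10 counts, and in the polyA set VTRNA1-3 did so only in auxin-treated DIS3-AID cells.

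In untreated control cells, all 8 tested members were lower on chromatin than in the cytoplasm (edgeR, adjusted p < 0.05), where 44.0% of all features tested were lower. The median over the members was -7.13 on the log2 scale, against 0.10 over all features. The 2 fractions were scaled together. With library sizes alone the median over all features was 0.76, and all 8 members were still lower, at log2 -9.34 to -0.63. RPPH1 showed the largest difference, 1020-fold (log2 -10.00, SE 0.13, edgeR adjusted p = 3.13e-29), from 8110 to 9028 CPM in the 3 cytoplasm libraries to 12.1 to 14.3 in the 3 chromatin libraries. RNY1 was 285-fold lower, RN7SL2 239-fold, RN7SL1 195-fold and RN7SK 101-fold. The RNY1 value (log2 -8.15, SE 0.34) rests on 3 to 14 counts a library on chromatin. VTRNA1-3 was 7.18-fold lower, and RMRP (2.67-fold) and BCYRN1 (2.45-fold) differed least. With library sizes alone these last were at log2 -0.75 and -0.63. RN7SK is known as a nuclear RNA, and the soluble part of the nucleus was not analysed here. How much nuclear RNA the cytoplasm fraction holds was not tested. The fold differences compare shares of the libraries and not amounts per cell.

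**Figure D2:**
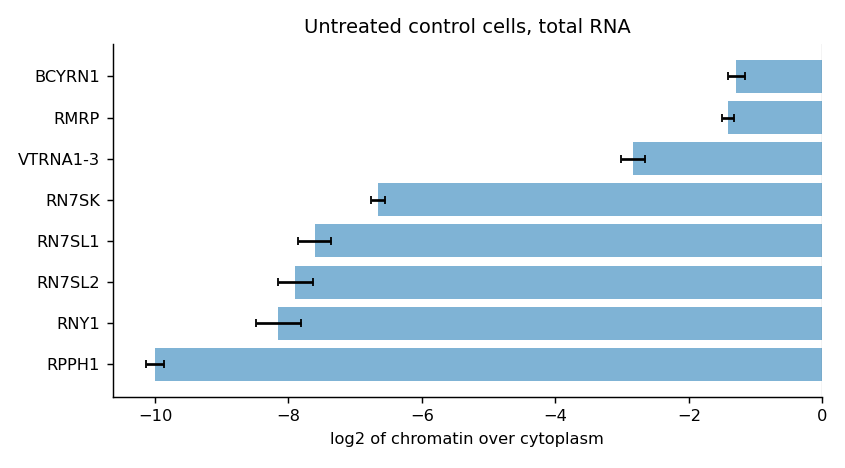
Log2 ratio of chromatin to cytoplasm level in untreated control cells, total RNA, for the 8 tested members. Bars are the edgeR estimates from 3 libraries a group and error bars are 1 SE. RMRP and BCYRN1 lie closest to 0, at -1.42 and -1.29, and RPPH1 farthest, at -10.00.

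After auxin, 2 of the 8 tested members rose in the cytoplasm of DIS3-AID cells and 4 of 8 on chromatin. In the cytoplasm, where 21.1% of all features tested rose and 13.2% fell, BCYRN1 and VTRNA1-3 rose. On chromatin, where 11.0% rose and 9.54% fell, RPPH1 and RMRP rose as well. The median over the members was -0.07 in the cytoplasm and 0.35 on chromatin on the log2 scale, against -0.05 and 0.00 over all features. The cytoplasmic count, 2 of 8, is near that background, and the chromatin count, 4 of 8, is above it. The chromatin count includes RMRP, which lay just inside the threshold (edgeR adjusted p = 0.0495). Its log2 change there was 0.30 in DIS3-AID cells and 0.24 in control cells. Leaving out single libraries moved the chromatin count between 2 and 4. In bulk RNA fewer cells and less RNA per cell cannot be told apart.

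BCYRN1 gave the largest response. On chromatin its level was 1.17, 1.28 and 1.63 CPM in untreated DIS3-AID cells and 4.76, 5.52 and 4.69 with auxin. Every treated library stood above every other chromatin library, of which the highest was at 1.63. The difference was 3.71-fold (log2 1.89, SE 0.14, edgeR adjusted p = 3.47e-08). In the cytoplasm its level was 2.44, 2.69 and 2.95 CPM without auxin and 4.58, 4.47 and 4.19 with auxin, again without overlap. That rise was 1.64-fold (log2 0.72, SE 0.10, adjusted p = 8.14e-06).

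AC106869.1, the gene whose intron holds BCYRN1 on the other strand, moved in part with it. In the cytoplasm it was at 0.67, 0.654 and 0.876 CPM in untreated DIS3-AID cells and at 2.16, 2.22 and 1.58 with auxin, a log2 rise of 1.44 (SE 0.19, edgeR adjusted p = 6.2e-06). On chromatin it rose by 0.38 (SE 0.09, adjusted p = 0.00359) on the log2 scale in DIS3-AID cells and by 0.41 (SE 0.09, adjusted p = 0.00272) in control cells. Its auxin effects in the 2 lines differed by -0.03 on chromatin (adjusted p = 0.908), where those of BCYRN1 differed by 2.17. In the cytoplasm they differed by 1.12 (SE 0.28, adjusted p = 0.007). The library kits mark strand, but the strand setting of the counting is not given in the sources used here. AC106869.1 had 40 to 219 counts a library in the cytoplasm and 261 to 602 on chromatin. BCYRN1 had 168 to 463 and 65 to 346. In the cytoplasm RPS29, opposite RN7SL1, had 8347 to 18521 counts a library, against 589193 to 1211048 for RN7SL1. AL627171.2, whose intron holds RN7SL2 on the same strand, had nearly the counts of RN7SL2. The part of AC106869.1 in the BCYRN1 counts was not tested.

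VTRNA1-3, the one vault RNA with enough counts, rose in both fractions. On chromatin its level was 0.323, 0.248 and 0.263 CPM (16 to 29 counts a library) in untreated DIS3-AID cells and 0.482, 0.983 and 0.746 (35 to 52 counts) with auxin. The groups did not overlap, and the rise was 2.55-fold (log2 1.35, SE 0.25, edgeR adjusted p = 0.000903). The treated libraries overlapped the untreated control cells, at 0.436 to 0.528 CPM. In the cytoplasm the level was 2.19, 2.42 and 2.18 without auxin and 3.89, 3.16 and 2.94 with auxin, above all other cytoplasm libraries, a rise of 1.48-fold (log2 0.56, SE 0.13, adjusted p = 0.00222).

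The catalytic RNAs of RNase P and RNase MRP passed on chromatin, with smaller rises, and not in the cytoplasm. RPPH1 on chromatin was at 10.4, 8.94 and 9.61 CPM in untreated DIS3-AID cells and 12.7, 13.7 and 12.4 with auxin, 1.34-fold higher (log2 0.42, SE 0.11, edgeR adjusted p = 0.0144). The treated libraries lay in the range of the untreated control cells, 12.1 to 14.3. The adjusted p was 0.0645 without treated library 2 and 0.0629 without untreated library 2. RMRP was at 542, 443 and 508 CPM without auxin and 542, 650 and 647 with auxin. These groups overlapped, and the rise, 1.23-fold (log2 0.30, SE 0.10, adjusted p = 0.0495), lay just inside the threshold. It was lost with library sizes alone (0.25, adjusted p = 0.105) and when untreated library 2 or 3 or treated library 2 or 3 was left out (adjusted p = 0.0916 to 0.19). In the cytoplasm RPPH1 (log2 -0.14, SE 0.06, adjusted p = 0.0645) and RMRP (-0.10, SE 0.05, adjusted p = 0.152) did not pass. RPPH1 passed as a fall there without treated library 2 (-0.18, adjusted p = 0.0126) and with no filter on low counts (-0.12, adjusted p = 0.00501), and RMRP without untreated library 2 (-0.13, adjusted p = 0.0499).

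**Figure D3:**
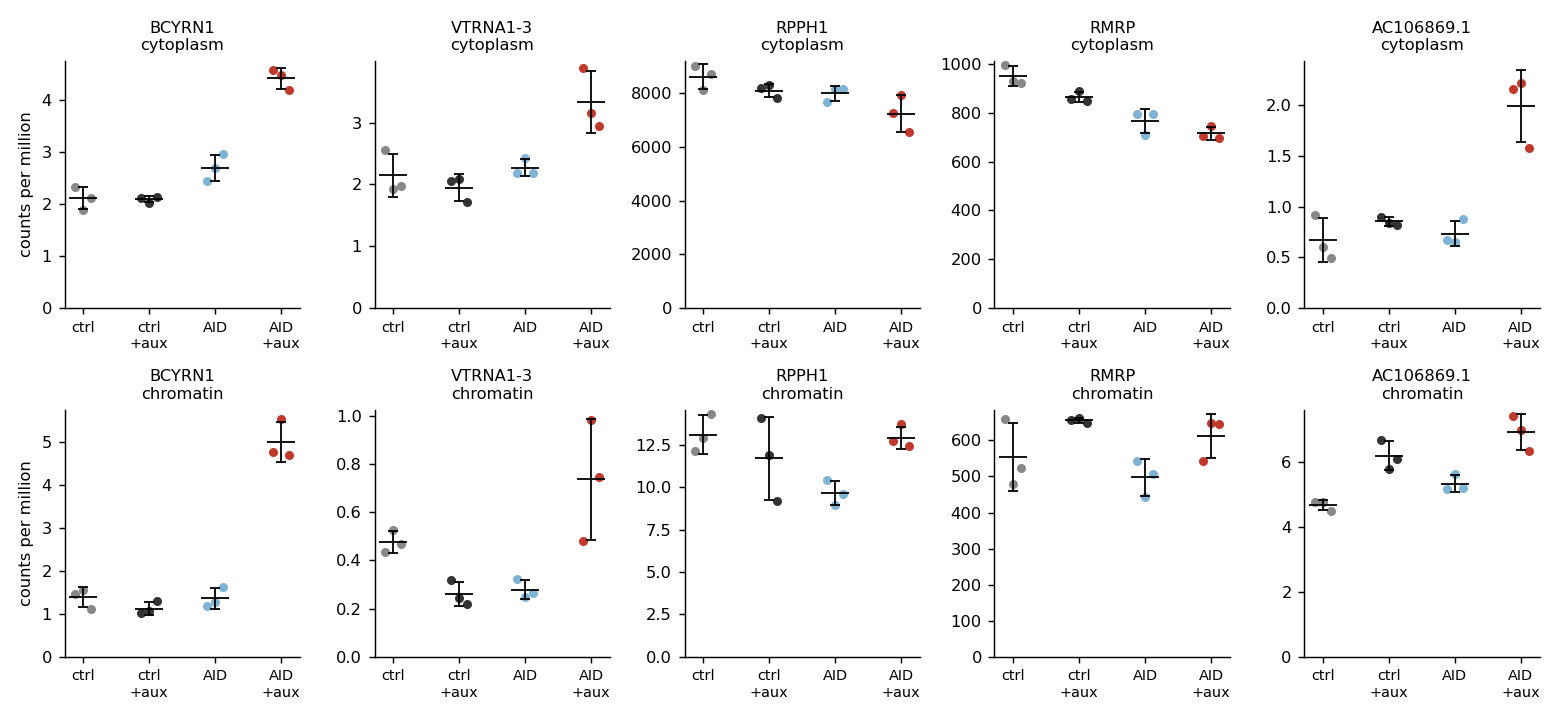
Level in CPM in each cytoplasm and chromatin library for the 4 members that rose on chromatin and for AC106869.1, which spans BCYRN1 on the opposite strand. Points are libraries, horizontal marks are means and error bars are the SD of 3 libraries, with ctrl for control cells, AID for DIS3-AID cells and aux for auxin. BCYRN1 on chromatin is at 4.69 to 5.52 in treated DIS3-AID cells and at most 1.63 elsewhere.

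The 4 other tested members did not pass the test in either fraction. RN7SK, the scaffold of the 7SK complex, was at 15398, 17157 and 17860 CPM in untreated DIS3-AID cytoplasm and 15864, 16004 and 14925 with auxin. Its log2 change was -0.11 (95% interval -0.21 to -0.00) in the cytoplasm and -0.07 (-0.23 to 0.09) on chromatin, and the cytoplasmic value passed when untreated library 1 was left out (-0.15, edgeR adjusted p = 0.0469). RN7SL1 changed by -0.07 (-0.23 to 0.08) in the cytoplasm and 0.34 (-0.10 to 0.79) on chromatin, in log2 units. RN7SL2 changed by -0.01 (-0.31 to 0.29) and 0.37 (-0.03 to 0.77). For both 7SL genes 1 library stood apart in each fraction. Untreated DIS3-AID cytoplasm library 3 was at 11336 CPM for RN7SL1 and 10226 for RN7SL2, against 8542 to 8829 and 6619 to 6661 in its 2 companions. Without that library the RN7SL2 change turned to 0.25 (adjusted p = 0.00936). On chromatin treated library 1 stood high, at 116.4 CPM for RN7SL1 against 60.1 and 76.4, and at 75.7 for RN7SL2 against 40.9 and 49.4. With library sizes alone the cytoplasmic changes of RN7SL1 (0.03), RN7SL2 (0.09) and RNY1 (0.03) turned positive and did not pass. RNY1 changed by -0.07 (-0.48 to 0.35) in the cytoplasm, and on chromatin its few counts gave an interval from -1.77 to 0.02.

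Auxin without the degron served as the background. In the cytoplasm of control cells 0 of 8 tested members passed (edgeR), as did 0.0478% of all features, 1 member had an unadjusted p under 0.05 (RMRP, log2 -0.13) and DESeq2 called 0. BCYRN1 changed by -0.02 (SE 0.10) and VTRNA1-3 by -0.14 (SE 0.13). On chromatin, where 17.0% of all features passed in control cells, 1 of 8 did. VTRNA1-3 fell there by 0.82 on the log2 scale (SE 0.27, edgeR adjusted p = 0.0412), from 0.436, 0.528 and 0.468 to 0.319, 0.246 and 0.219 CPM, without overlap. The call did not hold when any 1 of the 6 libraries was left out (adjusted p = 0.0571 to 0.123) or in DESeq2 (0.0554). BCYRN1 changed by -0.28 (SE 0.16, adjusted p = 0.274), RPPH1 by -0.16 and RMRP by 0.24 (SE 0.10, adjusted p = 0.123). Without untreated control library 1, RMRP passed (0.39, adjusted p = 0.00697).

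The auxin effect differed between the lines for the members that rose most. In the cytoplasm, where 19.4% of all features passed this test, BCYRN1 (log2 difference 0.73, SE 0.14, edgeR adjusted p = 0.000692) and VTRNA1-3 (0.71, SE 0.19, adjusted p = 0.00982) passed. On chromatin, where 17.7% passed, 3 of 8 did. These were BCYRN1 (2.17, SE 0.21, adjusted p = 4.45e-06), VTRNA1-3 (2.17, SE 0.37, adjusted p = 0.000551) and RPPH1 (0.58, SE 0.16, adjusted p = 0.0182). For RPPH1 the adjusted p was 0.0523 without treated DIS3-AID library 2 and 0.0597 without untreated control library 3. For RMRP the effects, 0.30 and 0.24, differed by 0.06 (95% interval -0.23 to 0.34), which did not pass. In the cytoplasm RN7SL1 (0.18, adjusted p = 0.035) and RN7SL2 (0.31, adjusted p = 0.0196) passed once untreated DIS3-AID library 3 was left out.

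**Figure D4:**
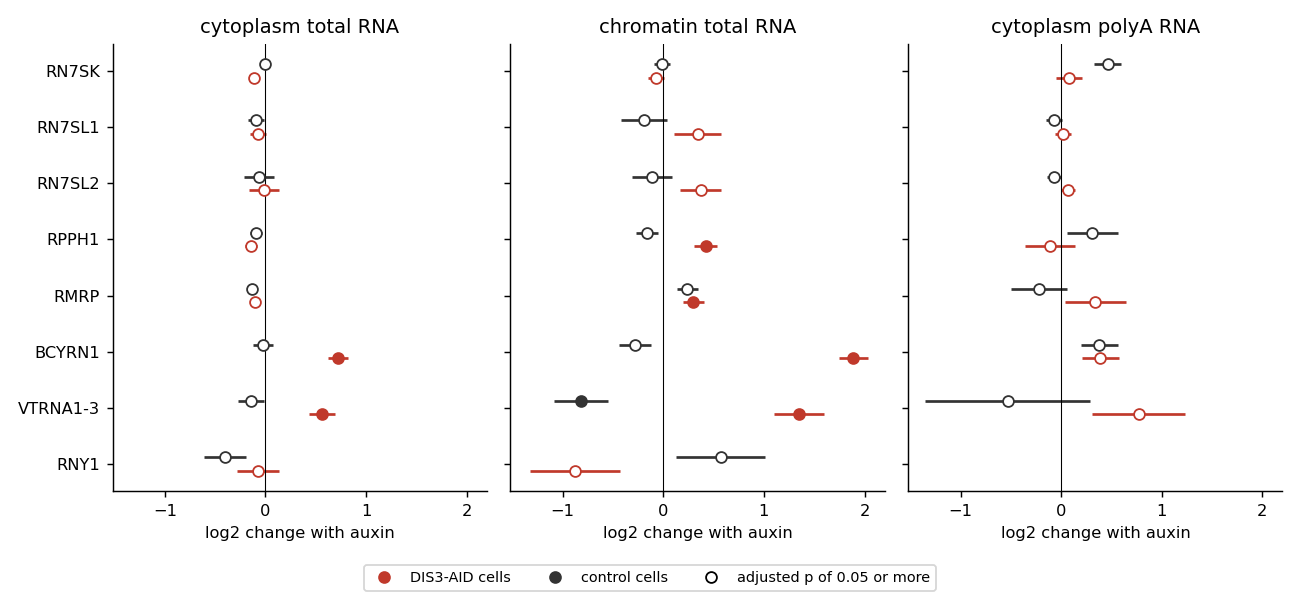
Log2 change with auxin in DIS3-AID cells (red) and control cells (black) for the tested members in the 3 data sets. Points are edgeR estimates from 3 libraries a group, error bars are 1 SE and filled points passed adjusted p < 0.05. BCYRN1 reaches 1.89 and VTRNA1-3 1.35 on chromatin in DIS3-AID cells, and in the polyA set no point is filled.

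The response of DIS3-AID cells was larger on chromatin than in the cytoplasm for 4 of 8 members, where 22.1% of all features had a larger response on chromatin. The median difference over all features was 0.16 on the log2 scale, and -0.17 with library sizes alone, so a member's value is to be read against that shift. BCYRN1 differed by 1.36 (SE 0.18, edgeR adjusted p = 1.14e-07), VTRNA1-3 by 0.96 (SE 0.30, adjusted p = 0.0121), RPPH1 by 0.75 (SE 0.14, adjusted p = 0.000183) and RMRP by 0.58 (SE 0.12, adjusted p = 0.000463). With library sizes alone BCYRN1 (1.03) and RPPH1 (0.42) still passed, while VTRNA1-3 (0.63, adjusted p = 0.122) and RMRP (0.25, adjusted p = 0.188) did not. VTRNA1-3 also missed the threshold without treated chromatin library 2 (0.71, adjusted p = 0.0824). RN7SL1 (0.80, adjusted p = 0.0169) and RN7SL2 (0.75, adjusted p = 0.0422) passed without treated chromatin library 3. With all libraries RN7SL3, not a member, passed (0.60, SE 0.20, edgeR adjusted p = 0.0262).

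Without auxin the DIS3-AID clone already differed from the control line. In the cytoplasm, where 22.1% of all features differed, RMRP was lower in the clone, at 711 to 795 against 922 to 998 CPM, a log2 difference of -0.31 (SE 0.05, edgeR adjusted p = 0.000278). BCYRN1 was higher, by 0.34 on the log2 scale (SE 0.10, edgeR adjusted p = 0.0217), which was lost without DIS3-AID library 3 (adjusted p = 0.0857) or control library 2 (0.118). Leaving out DIS3-AID library 3 brought RN7SL1 past the threshold (-0.20, adjusted p = 0.00461). With all libraries RN7SL3, not a member, was higher in the clone (log2 0.35, SE 0.07, edgeR adjusted p = 0.00126). On chromatin, where 32.5% differed in either direction, 3 of 8 members differed, near that share, and all 3 were lower in the clone. Of all 24966 features tested there, 4335 were lower and 3785 higher. RPPH1 was at 8.94 to 10.4 against 12.1 to 14.3 CPM (log2 -0.44, SE 0.11, adjusted p = 0.00555). RN7SK was at 194 to 215 against 226 to 273 (log2 -0.29, SE 0.08, adjusted p = 0.0118), a call lost without control library 3 (adjusted p = 0.0775). VTRNA1-3 was lower, at log2 -0.74 (SE 0.26, adjusted p = 0.0337), a call lost when DIS3-AID library 2 or 3 or any control library was left out (adjusted p = 0.0506 to 0.117) and in DESeq2 (0.0657). RPPH1 and VTRNA1-3 on chromatin thus rose with auxin from a level that was lower in the clone. Both comparisons share the untreated DIS3-AID libraries.

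BCYRN1 was the one tested member with a higher level in the polyA set than in cytoplasm total RNA. Mean levels over the 12 libraries were 6.5 ± 1.1 CPM for RN7SK (SD), 26.2 ± 3.93 for RN7SL1 and 2.56 ± 0.635 for RPPH1, against 16199, 9522 and 7991 in cytoplasm total RNA. BCYRN1 was at 8.73 ± 2.16 CPM in the polyA set and 2.83 ± 1 in total RNA, a ratio of 3.09. The ratio was 0.0865 for VTRNA1-3 and 0.00871 or less for RNY1, RMRP, RPPH1, RN7SK and both 7SL genes. The sets come from different kits and were scaled separately, so these ratios are descriptions. The longest run of A within the gene was 11 bases in BCYRN1 and 2 to 4 in the other members. Whether BCYRN1 entered the polyA set through that run or through an added tail was not tested.

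Auxin in DIS3-AID cells changed 0 of 7 tested members in the polyA set by edgeR, where 13.2% of all features rose and 3.88% fell, 1 member had an unadjusted p under 0.05 and DESeq2 called 0. BCYRN1 was at 7.39, 9.19 and 8.95 CPM without auxin and 12.8, 12.2 and 8.3 with auxin, and the groups overlapped (log2 0.39, SE 0.18, adjusted p = 0.181). Without treated library 3 it passed (0.54, adjusted p = 0.00863). In control cells BCYRN1 changed by 0.38 (SE 0.18), and the auxin effects of the 2 lines differed by 0.00 (95% interval -0.50 to 0.51). VTRNA1-3 had 6, 9 and 6 counts without and 12, 13 and 11 with auxin (log2 0.77, SE 0.46, adjusted p = 0.31). In control cells 0 of 7 members passed by edgeR and by DESeq2, as did 0.0480% of all features by edgeR, and 1 had an unadjusted p under 0.05 (RN7SK, 0.46). The difference of the auxin effects, passed by 5.84% of all features, was passed by 0 of 7 members, with no unadjusted p under 0.05 and 0 in DESeq2. Between the untreated lines, where 11.9% of all features differed, RN7SL1 (22.3 to 23 against 28 to 32.3 CPM) and RN7SL2 (25.2 to 27.8 against 33.8 to 35.7) were lower in the clone. The log2 differences were -0.42 (SE 0.08, adjusted p = 0.000433) and -0.40 (SE 0.07, adjusted p = 0.000231). BCYRN1 passed as well without control library 3 (0.54, adjusted p = 0.0465). The near-identical RN7SL3 did not pass between the untreated lines in the polyA set (log2 -0.11, SE 0.16, edgeR adjusted p = 0.723).

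Genes whose levels ran most like those of the members that rose were sought among all tested genes with a symbol, by Pearson's r of log2 CPM over the 12 libraries of a set. For BCYRN1 these were ALPK2 (0.989), ITGB8-AS1 (0.988) and SYTL3 (0.987) in the cytoplasm, and CCDC183-AS1 (0.988), RSL1D1-DT (0.981) and CTC-338M12.4 (0.975) on chromatin. For VTRNA1-3 they were MBOAT4 (0.950), ABCC6P1 (0.950) and CALR3 (0.943) in the cytoplasm and SLX4IP (0.960), HMBOX1-IT1 (0.941) and MATR3 (0.939) on chromatin. RPPH1 on chromatin ran most like MGAT2 (0.935), CANX (0.923) and COG5 (0.903), and RMRP like SNORD102 (0.914), IARS1 (0.913) and EIF4A1 (0.894). These values describe libraries that share groups and scaling.

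Other RNAs of polymerase III were led by the U6 genes, which make the spliceosomal U6 snRNA. The tables held 15 genes of this kind, and 8 could be tested in the cytoplasm after auxin in DIS3-AID cells. Of these 4 rose and 0 fell, where 21.1% of all features rose and 13.2% fell, with a median log2 change of 0.93 against -0.05 over all features. RNU6-2 rose from 8.84 ± 0.495 to 21.8 ± 1.7 CPM (SD, n = 3; log2 1.30, edgeR adjusted p = 2.87e-11), with RNU6-9 (1.31) and RNU6-1 (1.02) beside it. On chromatin RNU6-2 was the one riser of 2 tested (log2 1.90, adjusted p = 4.58e-07), where 11.0% of all features rose. In the polyA set it was the one riser of 3 (1.41, adjusted p = 0.00177), where 13.2% rose. The U6 genes are near-identical copies, so reads may be split among them. Of 1026 annotated copies and pseudogenes of the members, 83 could be tested in the cytoplasm, where 4 rose and 2 fell. On chromatin 5 rose and 4 fell of 202, and in the polyA set 1 rose and 0 fell of 7. Both total RNA counts lie below the shares of all features, which on chromatin were 11.0% for rises and 9.54% for falls. Of the 4 that rose in the cytoplasm, RN7SKP114, RN7SL346P and RN7SL521P had 10 counts or more in every library of the auxin-treated DIS3-AID group and of no other group, so they could be tested only through the group in which they are high. RN7SKP114 had 3 to 9 counts a library in untreated and 59 to 102 in treated DIS3-AID cells, RN7SL346P 0 to 4 and 10 to 22, and RN7SL521P 8 to 18 and 42 to 56. RN7SKP47 (-0.91) and RN7SKP255 (-0.37) fell. On chromatin RN7SL832P (0.73), RN7SL530P (0.57) and RN7SKP78 (0.49) rose and RN7SL37P (-0.89) and RN7SL600P (-0.77) fell. RN7SL689P, called as a fall, had 8 to 12 counts without and 1 to 3 with auxin. RN7SL832P was also the riser of the polyA set (1.47, adjusted p = 4.59e-06).

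RNA levels of the genes for proteins that bind or make these RNAs were tested after auxin in DIS3-AID cells. The largest change that passed was that of ZNF143, an activator of small RNA genes. Whether the chromatin values come from finished mRNA or from unspliced RNA was not tested. The counts below stand against shares of all features that rose or fell of 21.1% and 13.2% in the cytoplasm, 11.0% and 9.54% on chromatin, and 13.2% and 3.88% in the polyA set. Of 7 proteins of the 7SK complex, 2 fell in the cytoplasm (the kinase CDK9, log2 -0.23, and its cyclin CCNT2, -0.27), 1 fell on chromatin (MEPCE, the 7SK capping enzyme, -0.28) and CDK9 fell in the polyA set (-0.17). Of 8 genes of the signal recognition particle and its receptor, SRPRA (-0.25), SRPRB (-0.24) and SRP68 (-0.12) fell in the cytoplasm, SRP9 rose on chromatin (0.21) and SRPRB fell in the polyA set (-0.19). Of 11 protein subunits of RNase P and MRP, 0 passed in the cytoplasm by edgeR, with 0 at an unadjusted p under 0.05 and 0 in DESeq2, and on chromatin RPP25L rose (0.36) and RPP40 fell (-0.37). Of 6 genes for vault, Ro and La proteins and NSUN2, which methylates vault RNA, 0 passed in the cytoplasm by edgeR, with 0 at an unadjusted p under 0.05 and 1 in DESeq2, and on chromatin TEP1 (-0.27) and PARP4 (-0.24), both of the vault particle, fell. Neither list had a gene that passed in the polyA set by edgeR, with 0 at an unadjusted p under 0.05 and 0 in DESeq2. Of 32 genes of the polymerase III machinery, 1 rose, below that share, and 5 fell, near it, in the cytoplasm. ZNF143 rose (0.71, SE 0.06, adjusted p = 6.96e-09), and MAF1, the repressor of RNA polymerase III (-0.25), SNAPC2 (-0.23) and POU2F1 (-0.20) were the largest falls. On chromatin POU2F1 rose (0.19) and POLR1D (-0.37) and POLR3GL (-0.36) fell, and in the polyA set POU2F1 fell (-0.21). Of 17 factors that trim or degrade RNA, TUT1, the terminal uridylyltransferase of U6 RNA, rose (0.34) and TENT4B (-0.17) and PARN (-0.14) fell in the cytoplasm, while PARN (0.31) and DIS3L2 (0.15) rose on chromatin. In the polyA set 0 of 16 passed by edgeR, 1 had an unadjusted p under 0.05 and DESeq2 called 0. The median log2 change of these protein lists lay between -0.15 and 0.01, against -0.05 to 0.00 over all features. The polyA set held 5, 7, 8, 6, 24 and 16 genes of these lists, in the order given.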

How the data were processed

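The deposited tables give raw read counts per feature, 1 table a library, made by the authors with STAR 2.7.3a, Cufflinks 2.2.1 and featureCounts 2.0.0 on hg38, per the submitters' processing notes. Their parameters, annotation release, strand setting and treatment of reads that fit several places are not given in the sources used here. Total RNA was ribo-depleted and made into stranded libraries, per the labels' protocols. Names, types and positions came from GENCODE 29. Sequences of some members are not reported here.

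Counts were filtered with filterByExpr (min.count 10, which left 23027 cytoplasm, 24966 chromatin and 16651 polyA features), scaled by TMM and fitted in edgeR 4.0.16 (R 4.3.3) by quasi-likelihood with robust dispersion, 1 fit for each data set and 1 for both total RNA fractions. Benjamini-Hochberg adjustment ran over all features tested, with a threshold of 0.05. SE is the log2 change divided by the root of the F statistic, an approximation, and 95% intervals rest on it. The intervals use a normal quantile and are narrower than the F test would give. For RN7SK in DIS3-AID cytoplasm the interval ended at -0.00, where the unadjusted edgeR p was 0.0585. The biological coefficient of variation was 6.07% to 6.59%. No 2 libraries of a group differed by as little as sampling noise.

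Alternatives were library sizes alone, DESeq2 size factors, no filter, a replicate block, DESeq2 1.42.0 and leaving out each library. The 10 members and the lists were chosen with earlier results of these data known. Every member is named. From each list the text names at most 3 largest rises and 3 largest falls that passed after auxin in DIS3-AID cells, and the 3 genes most like each member that passed there.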

Additional observations from a re-analysis of the deposited data

Results flagged for a closer look

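For 9 values the effect of auxin differed between the lines or between the fractions by a test of that difference (edgeR, interaction terms, 3 libraries a group). Between DIS3-AID and control cells the log2 effects differed by 0.73 for BCYRN1 and 0.71 for VTRNA1-3 in the cytoplasm. On chromatin they differed by 2.17 for BCYRN1, 2.17 for VTRNA1-3 and 0.58 for RPPH1. Between chromatin and cytoplasm of DIS3-AID cells they differed by 1.36 for BCYRN1, 0.96 for VTRNA1-3, 0.75 for RPPH1 and 0.58 for RMRP. Each test covered 8 members. Of all features, 19.4% passed between lines in the cytoplasm and 17.7% on chromatin, and 22.1% had a larger response on chromatin. With library sizes alone the fraction difference did not pass for VTRNA1-3 (0.63) or RMRP (0.25). The VTRNA1-3 difference on chromatin joins a rise in DIS3-AID cells and a fall in control cells.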

How the results depend on the processing

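Of 31 calls of single members, 22 held under every alternative run and 0 changed direction. RN7SL2 in the cytoplasm of DIS3-AID cells, not called in the main test, reversed to 0.25 without untreated DIS3-AID library 3. With no filter on low counts 1 member passed in control cytoplasm, 2 in control chromatin and 1 in DIS3-AID polyA RNA, against 0, 1 and 0. In control chromatin 0 passed with DESeq2. The larger chromatin response held for 2 members with library sizes alone, against 4. Leaving out 1 library moved the number of members called between 2 and 4 for auxin in DIS3-AID cytoplasm, 1 and 2 for the untreated lines in cytoplasm, 2 and 4 for the difference of auxin effects in cytoplasm, 2 and 4 for auxin in DIS3-AID chromatin, 0 and 1 for auxin in control chromatin, 1 and 4 for the untreated lines on chromatin, and 0 and 1 for auxin in DIS3-AID polyA RNA. The number of all features called in control cells was 11 in the cytoplasm, 4 with DESeq2 size factors, 245 with no filter, 66 with DESeq2 and 1 to 34 with 1 library left out. In control polyA RNA it was 8, against 36, 19 and 4 to 28 (no filter, DESeq2, 1 library left out). It fell from 4242 to 2597 and 2313 in control chromatin without treated library 1 or untreated library 3, from 1976 to 1302 and 1194 between the untreated lines in polyA RNA without DIS3-AID library 1 or control library 2, and from 9080 to 5899 for the fraction response with library sizes alone. Scaling by library sizes alone moved the share of rises among all features called from 61.5% to 89.1% for auxin in DIS3-AID cytoplasm, from 53.5% to 39% on chromatin and from 77.2% to 87.7% in polyA RNA. For the chromatin minus cytoplasm response it moved from 66.6% to 6.42%, for the difference between lines from 82.9% to 94.5% in the cytoplasm and from 48.1% to 32.2% on chromatin, for the untreated lines on chromatin from 46.6% to 58.8% and for chromatin against cytoplasm from 51.2% to 61.5%. DESeq2 size factors moved the untreated lines in the cytoplasm from 43.8% to 55.4%. VTRNA1-3 and RNY1 had few counts on chromatin, which limits the precision of their values.

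Libraries share replicate numbers, and the labels do not say that a number marks a shared culture or day. Whether same-numbered libraries deviate together depended on the features used. This check was run 4 times, on all tested features and on features with a mean of at least 100, 500 and 2000 counts, and the last 3 were added after the first had been seen. On all tested features and at 100 counts no comparison had every pair of libraries above a correlation of 0.1. At 500 and 2000 counts auxin in control cells did in the cytoplasm (lowest pair 0.188 and 0.295) and in the polyA set (0.176 and 0.157), and no other comparison tested did. With the replicate block 0 members passed in control chromatin, against 1 (VTRNA1-3, adjusted p = 0.0524), and 0 passed in control cytoplasm and control polyA RNA as before. The number of all features called by edgeR rose from 11 to 62 in control cytoplasm and from 8 to 24 in control polyA RNA. The block brought RPPH1 past the threshold in DIS3-AID cytoplasm (-0.15, adjusted p = 0.0428) and RN7SL2 on DIS3-AID chromatin (0.34, adjusted p = 0.0417). In the differences of effects it did so for RN7SL1 between lines on chromatin (0.51, adjusted p = 0.0496) and between fractions (0.56, adjusted p = 0.0317).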
